A study of Mus musculus with 170 samples.

Results

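The 9 genes described here, Col4a1, Col4a2, Col4a5, Col18a1, Hspg2, Agrn, Sparc, Nid1 and Nid2, encode collagen IV chains, heparan sulfate proteoglycans, the collagen-binding protein SPARC and the nidogens. They were chosen by name, with earlier results of these data known, and all 9 are among the 40549 genes of the expression table. The table holds TPM (a transcript level corrected for transcript length and for the total of the cell) for 143 single cells picked by hand from the heart ventricles of C57BL/6 mouse embryos at embryonic day 9.5. Of these cells, 74 are control (labelled wild type; by the study's methods Dgcr8 loxP/loxP; Rosa26 mT/mG/+ without Cre) and 69 are cKO (labelled Mesp1Cre/+; Dgcr8-/-, in which Cre expressed from the Mesp1 locus deletes loxP-flanked Dgcr8 in early mesoderm progenitors). Cells of either genotype thus come from embryos with floxed Dgcr8 alleles and the Rosa26 reporter, and the study kept only cells whose reporter matched the genotype. Each genotype was sequenced in 2 batches, with 35 and 39 control cells and 35 and 34 cKO cells in batch 1 and batch 2. The labels name no embryo or litter. Each genotype is hence 1 sample here, cells are not replicates of it, and no p-value is given.

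Basement membranes are thin sheets of extracellular matrix that lie under endothelia and epithelia and around single muscle cells. Laminin and collagen IV form separate networks, nidogens and the proteoglycan perlecan (Hspg2) link these to each other, and heparan sulfate chains on perlecan, agrin (Agrn) and collagen XVIII (Col18a1) bind growth factors. Collagen IV molecules are trimers, most commonly of α1 and α2 chains (Col4a1, Col4a2), and α5 (Col4a5) belongs to more restricted trimers. In the early heart, such matrix underlies the endocardium, the endothelial lining, and surrounds the myocardium. DGCR8 is a subunit of the Microprocessor, which cuts primary microRNA transcripts, so that cells without it lose most microRNAs.

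Cells were grouped by markers of 5 cell types, none of them among the 9 genes. A cluster of 94 cells with 15 of 15 cardiomyocyte markers was called CM-like and held 27 control and 67 cKO cells. The endothelial-like cluster (22 cells, 12 of 13 markers), the erythroid-like cluster (5 cells, 7 of 7 markers) and an unnamed cluster of 13 cells with 6 of 6 epicardial and 8 of 14 mesenchymal markers came from control hearts alone. The endothelial-like cluster also had 3 of 14 mesenchymal markers. The summed TPM of all 14 had a median of 710 there and 564 in the 13-cell cluster, so this sum does not set the latter apart. A further 9 cells, 7 control and 2 cKO, were led by mitochondrial transcripts and stayed unnamed. Read depth is unknown from TPM. The number of genes above 0 per cell had a median of 8819.5 in control and 8456 in cKO cells. Dgcr8 itself, for which a gene-level value cannot isolate the deleted part, averaged 2.41 log2(TPM + 1) among control and 1.66 among cKO CM-like cells. The gap was small in batch 1, with 2.58 in control and 2.38 in cKO, and larger in batch 2, with 2.02 and 0.97. Xist was at a TPM of 1 or more in 64 of 67 cKO and 0 of 27 control CM-like cells, and Ddx3y, on the Y chromosome, in 0 of 67 and 18 of 27, so that genotype and embryonic sex cannot be told apart in these cells. A count of 0 of 27 allows a share of up to 11.1%, and 0 of 67 allows up to 4.48%.

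In cardiomyocyte-like cells, most of the 9 genes had higher levels in cKO than in control. A gene was scored as higher when its mean log2(TPM + 1) differed by at least 1 (a doubling on that scale) pooled and also within each batch. By that rule Col4a1, Col18a1, Hspg2, Agrn and Nid2 were higher, which is 5 of 9, and none was lower. The pseudocount of 1 understates the change of low genes, and the count depended on it: with a pseudocount of 10 only Hspg2, 1 of 9, was scored, and the median difference of the 9 fell from 1.42 to 0.89. Among all 15071 genes above a TPM of 0 in more than 10 of these cells, 2.65% were higher and 2.69% lower, and all 9 genes passed this filter. The median difference over the 9 was 1.42 pooled, 1.41 in batch 1 and 1.33 in batch 2, against 0.052, 0.17 and −0.20 over all genes. Col4a2, Col4a5 and Sparc were scored as neither, since in each of them a batch fell short of 1, and Nid1 was close to 0 throughout. The study had itself singled out collagen genes and Hspg2 from these same cells, so their direction is not independent evidence. With 1 sample a genotype, differences between embryos and between genotypes cannot be told apart.

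**Figure D1:**
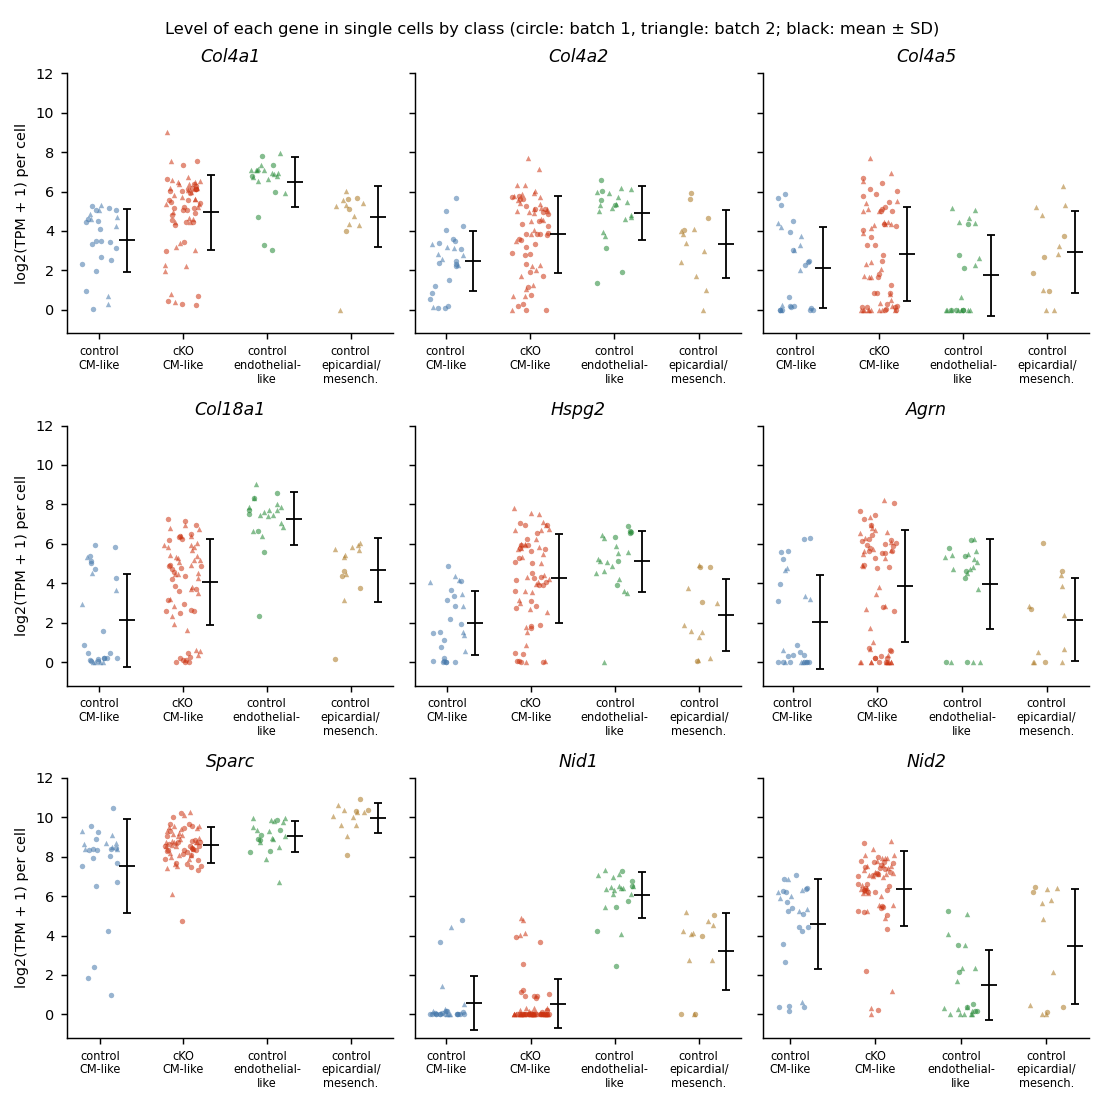
Level of each of the 9 genes, log2(TPM + 1), in single cells of 4 classes; circles are cells of batch 1, triangles cells of batch 2, and black marks give the mean ± SD across cells. Nid1 was listed at 0 in 15 of 27 control and 43 of 67 cKO CM-like cells and lay between 2.43 and 7.34 in endothelial-like cells, while Nid2 showed the opposite order.

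The comparison of control cells by class asked where in the normal ventricle the 9 genes are expressed. Endothelial-like cells had higher levels than CM-like cells for Col4a1, Col4a2, Col18a1, Hspg2, Agrn and Nid1, 6 of 9, and a lower level for Nid2 alone, 1 of 9. Over all 13130 genes tested in these cells, 10.2% were higher in endothelial-like cells and 4.68% lower, and the median of all genes was itself shifted by 0.29. The split over all genes was 1343 higher to 614 lower, and 1031 to 942 relative to that shift, which left the scores of the 9 genes as they were. Agrn was not scored with a pseudocount of 10 or from the log2 ratio of mean TPM, and Hspg2 and Agrn were not scored when clusters were built from the 1000 most variable genes, which left 4 of 9. The cluster with epicardial and mesenchymal markers was higher than CM-like cells for Col18a1, Sparc and Nid1, 3 of 9, against 8.30% of 11909 genes, and lower for none, against 4.92%. That was 989 genes to 586, and 803 to 729 relative to the all-gene shift of 0.29 there, after which Col18a1 was not scored and Nid2 was scored as lower. The median difference over the 9 genes was 2.44 for endothelial-like cells and 0.89 for the cluster with epicardial and mesenchymal markers.

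Nid1 was scored as higher in endothelial-like than in CM-like cells and Nid2 as lower. The pooled difference of Nid1 was the largest of the 9 genes, though Col18a1 was ahead of it in batch 2, in medians and with a pseudocount of 10. Nid1, or nidogen-1 (chromosome 13, 13437551 to 13512269, + strand, GRCm38), had a mean of 6.07 ± 1.18 (SD across cells) log2(TPM + 1) in endothelial-like cells and reached a TPM of 1 in 22 of 22. In control CM-like cells it was at 0.59 ± 1.38, listed at 0 in 15 of 27 cells, and reached that level in 4. Endothelial-like cells were thus higher by 5.48, or by 5.00 within batch 1 and 5.49 within batch 2, and the gap exceeded the SD across cells 3.97 times. The cluster with epicardial and mesenchymal markers lay between, at 3.19 ± 1.96, with 10 of 13 cells at a TPM of 1 or more. Its gaps to the endothelial-like cells, 2.88, and to the CM-like cells, 2.60, were both larger than the SD across cells.

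Nid2, nidogen-2 (chromosome 14, 19751265 to 19811787, + strand), was ordered the other way. In control CM-like cells its mean was 4.58 ± 2.27, and 22 of 27 cells had a TPM of 1 or more, 81.5% (exact 95% CI 61.9 to 93.7, counting error only). Endothelial-like cells were at 1.47 ± 1.78 with 9 of 22 cells detected, 40.9% (20.7 to 63.6). The mean was lower in endothelial-like cells by 3.11 pooled, with −2.54 in batch 1 and −3.97 in batch 2. In the cluster with epicardial and mesenchymal markers Nid2 was split between cells, with 8 of 13 detected, a mean of 3.45 and an SD of 2.90, so that this cluster did not differ from either neighbour beyond the spread.

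Of these closely related genes, only Nid2 was scored as different between genotypes. In CM-like cells Nid2 ranged from 0.15 to 7.06 with a median of 5.35 in control, and from 0 to 8.80 with a median of 7.03 in cKO. The ranges overlapped, but 32 of 67 cKO cells lay above the highest control cell and only 1 of 27 control cells lay above the cKO median. The difference of means was 1.80 (6.38 ± 1.89 against 4.58 ± 2.27), with 2.07 in batch 1 and 1.11 in batch 2. Restricting the comparison to cells with at least 6000 detected genes brought a batch below 1, so that Nid2 was no longer scored. Nid1 had a median of 0 in both genotypes, with highest cells at 4.81 in control and 4.88 in cKO. A TPM of 1 was reached in 4 of 27 control cells, 14.8% (4.19 to 33.7), and in 10 of 67 cKO cells, 14.9% (7.40 to 25.7). Over both batches the genotypes differed by −0.039, with 0.057 for batch 1 and −0.29 for batch 2.

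Within single cells, the nidogens were seldom found at comparable levels. Nid2 alone reached a TPM of 1 in 18 of 27 control and 54 of 67 cKO CM-like cells, Nid1 alone in 0 of either, and both in 4 and 10. Wherever both were detected in a CM-like cell, Nid2 was the higher. In endothelial-like cells Nid1 alone was detected in 13 of 22 and both in 9, and Nid1 was higher in all 22. The ratio of mean TPM, Nid1 over Nid2, was 14.8 for endothelial-like cells, 0.0494 for control CM-like cells and 0.0144 for those of cKO hearts. Across all 143 cells the Spearman correlation of Nid1 with Nid2 was −0.29, a description over cells that share libraries, batches and depth.

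**Figure D2:**
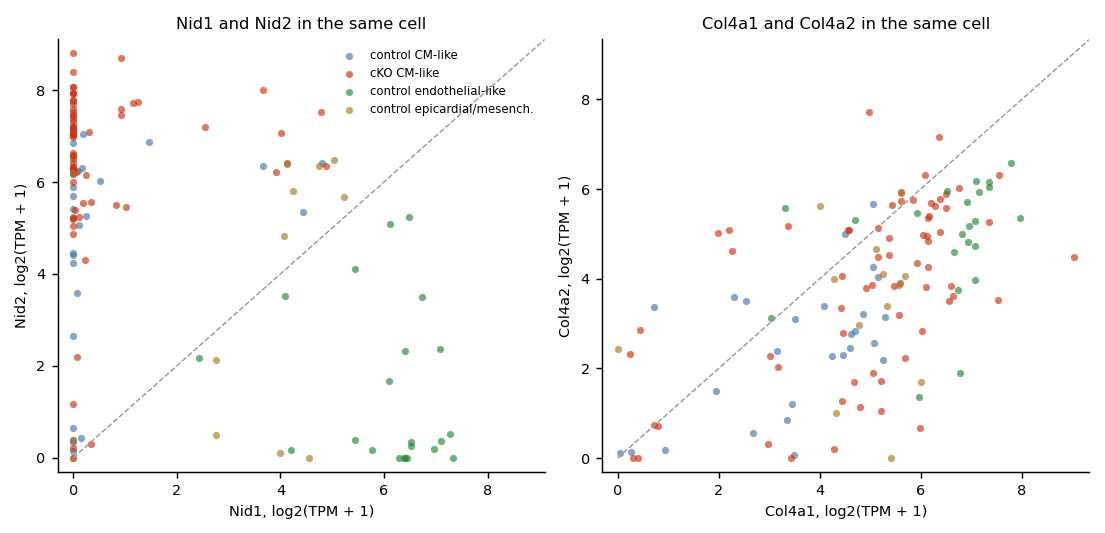
Nid2 against Nid1 (left) and Col4a2 against Col4a1 (right) in the same cell, log2(TPM + 1), coloured by class and genotype, with a dashed line of equal level. All 22 endothelial-like cells lie below the line in the nidogen panel and nearly all CM-like cells lie on or above it, while in the collagen panel most cells of every class lie below the line.

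Col4a1 and Col4a2, the chains of the common collagen IV trimer, lie head to head on chromosome 8 and share a promoter region. Col4a1 spans 11198423 to 11312826 on the − strand and Col4a2 11312805 to 11449287 on the + strand, so that their annotated first exons overlap by 22 bases. Reads from those bases could not be assigned to a strand in this protocol, which does not mark strand. The windows from 250 bases before to 50 after each start site (RefSeq, GRCm38.p6) are shown, 5′ to 3′, because these genes were each other's most similar gene across cells. Capitals mark the 78 bases, chr8:11312777-11312854, that the windows have in common, read from opposite strands.
Col4a1, chr8:11312777-11313076, − strand: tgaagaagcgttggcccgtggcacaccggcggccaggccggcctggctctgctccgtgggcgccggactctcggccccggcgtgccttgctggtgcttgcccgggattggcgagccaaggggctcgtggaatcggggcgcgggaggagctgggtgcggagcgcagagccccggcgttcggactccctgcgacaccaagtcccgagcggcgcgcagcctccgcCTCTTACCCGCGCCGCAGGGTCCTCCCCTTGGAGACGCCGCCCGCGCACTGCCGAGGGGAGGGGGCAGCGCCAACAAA
Col4a2, chr8:11312555-11312854, + strand: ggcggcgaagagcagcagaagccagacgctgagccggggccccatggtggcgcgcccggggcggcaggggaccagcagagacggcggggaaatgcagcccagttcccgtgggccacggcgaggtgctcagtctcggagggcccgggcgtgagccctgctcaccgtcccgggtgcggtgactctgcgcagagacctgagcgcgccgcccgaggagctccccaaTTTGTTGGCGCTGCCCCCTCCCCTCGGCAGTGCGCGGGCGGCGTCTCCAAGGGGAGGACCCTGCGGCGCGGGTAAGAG
The Col4a2 window is 73.7% G and C and that of Col4a1 differs by a single base, against a median of 52.7% over the 27025 promoters of the table, 1 per gene. The GC box GGGCGG, searched on both strands, occurs once in the shared bases, once in the Col4a1 window and 3 times in the Col4a2 window, and 35.9% of all promoters hold it. The TATA box TATAAA is in neither window, and 14.2% of promoters hold it. CCAAT occurs once in each window, never wholly within the shared bases, and in 37.9% of promoters. These matches describe letters and not binding.

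Among CM-like cells, Col4a1 was detected in 23 of 27 from control and 61 of 67 from cKO hearts. Its levels ran from 0.053 to 5.30 with a median of 4.08 in control, and from 0.25 to 9.04 with a median of 5.44 in cKO. The groups overlapped, yet 36 of 67 cKO cells lay above every control cell, and no control cell lay above the cKO median. The means were 3.53 ± 1.61 and 4.95 ± 1.91, a difference of 1.42 that was 1.40 in batch 1 and 1.33 in batch 2. In endothelial-like cells Col4a1 was higher still, at 6.51 ± 1.27 with 22 of 22 cells detected. The cluster with epicardial and mesenchymal markers stood at 4.72 ± 1.54. Its gap to the endothelial-like cells was larger than the SD across cells, and its gap to the CM-like cells was not.

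Col4a2 followed Col4a1 at a lower level. Control CM-like cells ran from 0.076 to 5.67 with a median of 2.57, and cKO cells from 0 to 7.72 with a median of 4.26. The groups overlapped more widely here, with 11 of 67 cKO cells above the highest control cell. The difference of means was 1.35 (3.82 ± 1.94 against 2.47 ± 1.50), with 0.91 in batch 1 and 1.74 in batch 2. Endothelial-like cells were at 4.91 ± 1.36, above control CM-like cells by 1.83 in batch 1 and 2.67 in batch 2.

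In cells with both chains at a TPM of 1 or more, Col4a1 was usually the more abundant. The median log2 ratio of Col4a1 to Col4a2 was 1.47 for control (higher in 16 of 20) and 1.17 for cKO CM-like cells (45 of 57), 1.56 in endothelial-like cells (19 of 22) and 1.69 in the cluster with epicardial and mesenchymal markers (9 of 11). The middle 50% of ratios, 0.59 to 2.30 in control and 0.41 to 2.37 in cKO CM-like cells, overlapped almost wholly. Across cells, Pearson's r of the chains was 0.57 in control and 0.53 in cKO CM-like cells, and Spearman's rho 0.47 and 0.53. In endothelial-like cells these were 0.28 and 0.48, and in the cluster with epicardial and mesenchymal markers 0.099 and 0.0055 over 13 cells. Over all 143 cells, the gene most like Col4a1 among the 10532 detected in at least 20% of cells was Col4a2, and the reverse also held, with a rho of 0.61.

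Col4a5, on the X chromosome (141475385 to 141689234, + strand), did not follow the other chains. Detection was 15 of 27 among control and 43 of 67 among cKO CM-like cells, with medians of 2.26 and 2.46 and ranges of 0 to 5.87 and 0 to 7.71 that overlapped almost entirely. Its means, 2.14 ± 2.05 and 2.84 ± 2.38, differed by 0.70, with 1.07 in batch 1 and 0.051 in batch 2. Endothelial-like cells had 1.75 ± 2.06, with 11 of 22 cells listed at 0, and the cluster with epicardial and mesenchymal markers 2.91 ± 2.09, and no class differed from its neighbour in this order beyond the SD across cells. Since genotype and sex coincide, the 563 X-linked genes tested were also compared. Their median difference was 0.045, and 3.02% of them were scored as higher and 2.84% as lower in cKO. Over all genes the median was 0.052, with 2.65% higher and 2.69% lower. The part of sex in the Col4a5 values was not tested, and a median over many genes cannot show it for 1 gene.

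**Figure D3:**
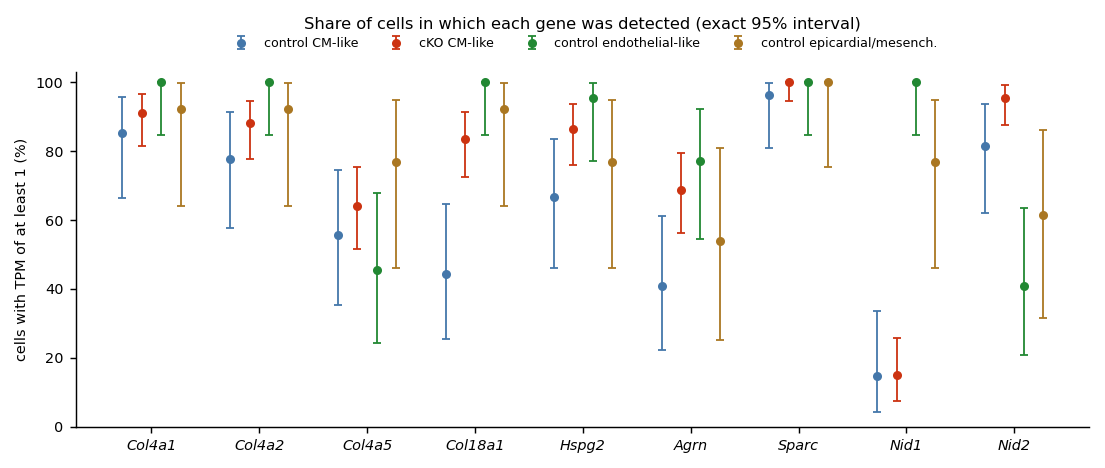
Share of cells in which each gene reached a TPM of at least 1, by class and genotype, with exact 95% intervals for counting error. For Col18a1, 12 of 27 control and 56 of 67 cKO CM-like cells were positive, and for Nid1 4 of 27 and 10 of 67.

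Collagen XVIII, perlecan and agrin carry heparan sulfate chains, and all were scored as higher in cKO CM-like cells. Col18a1 (chromosome 10, 77052178 to 77166548, − strand), whose C-terminal fragment endostatin is known as an inhibitor of angiogenesis, was split across control CM-like cells, with the lower quartile at 0.11 and the upper at 4.63. It ran from 0 to 5.92 with a median of 0.45 in control, and from 0 to 7.25 with a median of 4.54 in cKO. Detection went from 12 of 27 cells, 44.4% (25.5 to 64.7), in control to 56 of 67, 83.6% (72.5 to 91.5), in cKO, with intervals for counting error alone. Within the batches it went from 8 of 19 to 25 of 33 and from 4 of 8 to 31 of 34, and there the intervals of the genotypes overlapped. The ranges of levels did overlap, with 16 of 67 cKO cells above every control cell. The difference of means was 1.93 (4.05 ± 2.17 against 2.12 ± 2.35), with 1.46 in batch 1 and 2.43 in batch 2. Endothelial-like cells had the highest level, 7.28 ± 1.34, and every one of them was detected. The cluster with epicardial and mesenchymal markers had 4.66 ± 1.63, and here both gaps in the order of classes, 2.62 and 2.54, exceeded the SD across cells. In cKO CM-like cells Col18a1 remained 3.23 below the endothelial-like cells.

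Hspg2 (chromosome 4, 137468769 to 137570630, + strand) showed the largest pooled difference of means between genotypes among the 9 genes, but that order was not stable: Agrn was ahead of it in batch 1, Col18a1 in batch 2 and with a pseudocount of 0.1, both in medians, and Nid2 with a pseudocount of 10 and without cells holding mesenchymal or epicardial markers. Control CM-like cells ranged from 0 to 4.89 with a median of 1.54, and cKO cells from 0 to 7.83 with a median of 4.31. Of the cKO cells, 31 of 67 lay above the highest control cell, and 2 of 27 control cells lay above the cKO median. Its means were 1.99 ± 1.63 and 4.24 ± 2.24, and the difference of 2.25 was 2.17 in batch 1 and 1.86 in batch 2. This was the one gene whose difference, at 1.01 times the larger SD across cells, was not smaller than that spread. In endothelial-like cells Hspg2 was at 5.11 ± 1.54. Against these, cKO CM-like cells were lower by 2.19 in batch 1 and by 0.046 in batch 2, so that the comparison depended on the batch. The cluster with epicardial and mesenchymal markers, at 2.38 ± 1.81, did not differ from CM-like cells beyond the spread.

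Agrn (chromosome 4, 156165290 to 156197488, − strand), best known for clustering acetylcholine receptors at the neuromuscular junction, was detected in fewer control CM-like cells than any of the 9 genes but Nid1. Control CM-like cells ran from 0 to 6.29 with a median of 0.52, and 11 of 27 were detected, 40.7% (22.4 to 61.2). Among cKO cells the range was 0 to 8.23, the median 4.92, and 46 of 67 were detected, 68.7% (56.2 to 79.4). The ranges overlapped, with 14 of 67 cKO cells above all control cells and 5 of 27 control cells above the cKO median. The difference of means was 1.82 (3.85 ± 2.84 against 2.04 ± 2.40), 2.30 in batch 1 and 1.33 in batch 2. Endothelial-like cells were at 3.96 ± 2.28, a level from which cKO CM-like cells differed by −0.11, with opposite signs in the batches. Hspg2 and Agrn were detected together in 9 of 27 control and 42 of 67 cKO CM-like cells, and their Spearman correlation across cells was 0.12 and 0.27.

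Sparc (chromosome 11, 55394500 to 55423183, − strand), which binds collagen IV and takes part in its deposition, had the highest mean of the 9 genes in each class plotted. It had a mean TPM of 349 in control CM-like, 449 in cKO CM-like and 590 in endothelial-like cells, and of 1107 in the cluster with epicardial and mesenchymal markers. In the last of these classes the mean log2 level, 9.97 ± 0.75, lay above that of endothelial-like cells, 9.04 ± 0.78, by more than the SD across cells. Control CM-like cells ran from 0.99 to 10.45 with a median of 8.37, and cKO cells from 4.76 to 10.28 with a median of 8.60. No cKO cell lay above the highest control cell. The difference of means was 1.04 (8.58 ± 0.91 against 7.54 ± 2.38), yet it was 1.41 in batch 1 and −0.020 in batch 2, where the 8 control cells had 8.71 ± 0.33.

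**Figure D4:**
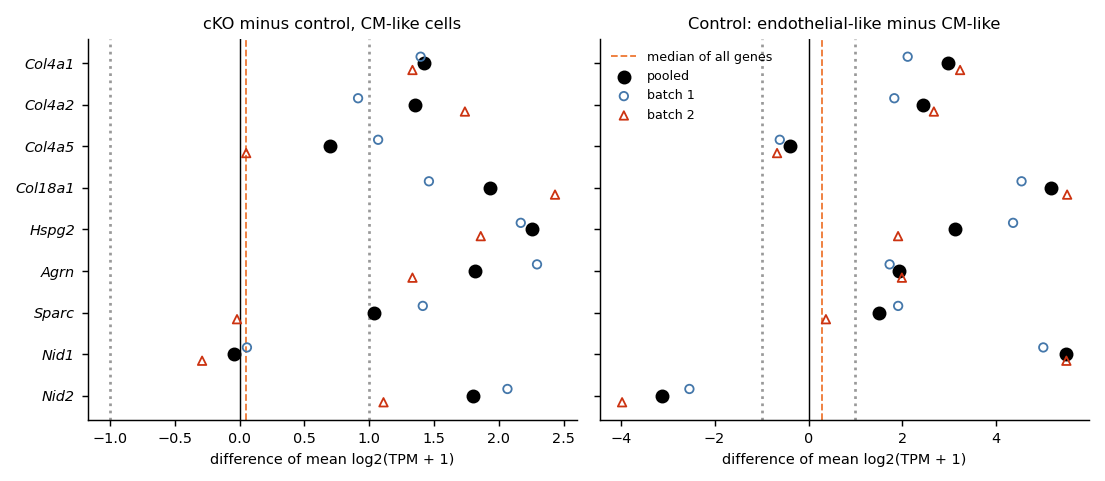
Differences of mean log2(TPM + 1) for the 9 genes, cKO minus control in CM-like cells (left) and endothelial-like minus CM-like in control (right), pooled and within each batch, with the threshold of 1 dotted and the median of all genes dashed. Sparc and Col4a5 were near 0 in batch 2 of the genotype comparison, and Nid2 lay on the opposite side of Nid1 in the class comparison.

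Counted per cell, a median of 6 of the 9 genes was at a TPM of 1 or more among control CM-like cells, and of 7 among those of cKO hearts. At least 7 were detected in 11 of 27 control cells, 40.7%, and in 47 of 67 cKO cells, 70.1%. By batch, the counts were 7 of 19 and 22 of 33 in batch 1, and 4 of 8 and 25 of 34 in batch 2. Endothelial-like cells held a median of 7.5 and at least 6 in every cell. The part of depth in these counts was not tested. Spearman's rho of level with the number of detected genes was taken for Col4a1, Col4a2, Nid1, Nid2, Hspg2 and Agrn. It ran from 0.23 (Col4a2) to 0.60 (Nid2) in control and from 0.032 (Col4a1) to 0.24 (Nid1) in cKO CM-like cells. CM-like cells had a median of 8458 detected genes in control and 9845 in cKO in batch 1, but 9704 and 7765 in batch 2.

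**Figure D5:**
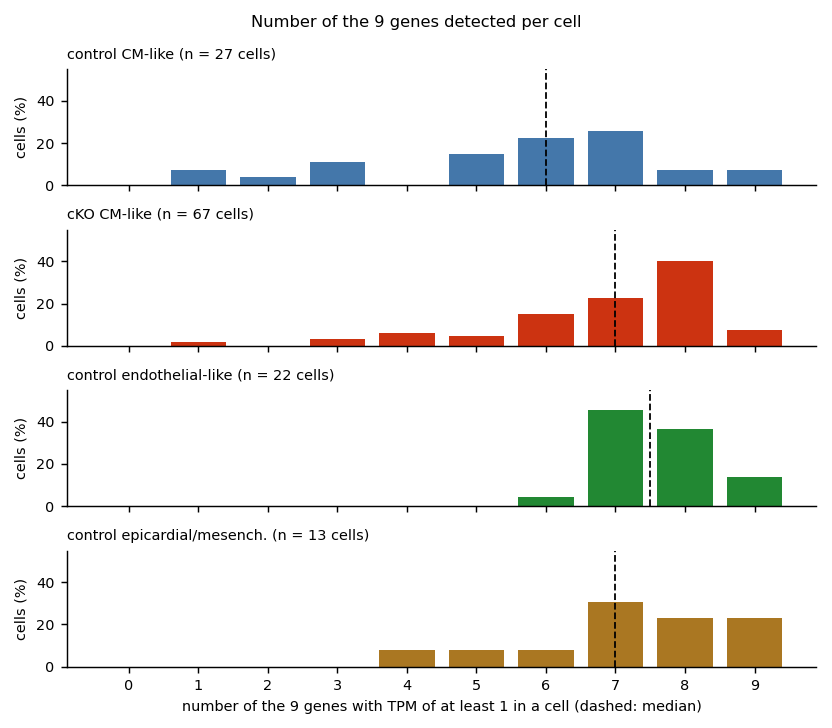
Percentage of cells by the number of the 9 genes at a TPM of at least 1, for 4 classes, with the median dashed. The cKO CM-like cells peaked at 8 genes, with 27 of 67 cells there, and the control CM-like cells had a median of 6; both groups ran from 1 to 9.

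Markers of other cell types were read in the same CM-like cells. The summed TPM of the 13 endothelial markers ran from 2.00 to 105 in control and from 2.76 to 208 in cKO CM-like cells, against 1024 to 4716 in endothelial-like cells. Of these markers, 11 had a mean log2(TPM + 1) under 1 in control and 12 in cKO, and of the 4 defining ones Cdh5 reached a TPM of 1 in none. Tie1 did so in 3 of 27 control and 9 of 67 cKO cells, Emcn in 1 and 2, and Cldn5 in 0 and 1, the last at a TPM of 78.2. Cldn5 reached that level in only 7 of 22 endothelial-like cells, so its absence says little. The comparison was restricted to the 24 control and 56 cKO cells with none of the 4 defining endothelial markers at a TPM of 1. The median difference of the 9 genes was then 1.59, and 6 of 9 were scored as higher, the previous 5 and Col4a2. Over all genes there, 2.95% were higher and 3.84% lower. The median summed TPM of the 14 mesenchymal markers was 3.36 in control and 7.34 in cKO, with highest cells at 110 and 128. For the 6 epicardial markers it was 3.15 and 23.3, with highest cells at 319 and 355, and Wt1 reached a TPM of 1 in 15 of 27 and 42 of 67 cells. Without any defining mesenchymal or epicardial marker, 10 control and 18 cKO cells remained. In these, 7 of the 9 genes were scored as higher, but so were 21.1% of all genes. Among the defining markers, Twist1 was detected in only 2 of 13 cells of the cluster with epicardial and mesenchymal markers. The part of these cell types in the differences was not tested. The 5 erythroid-like cells also held some of the 9 genes, with Col4a2 detected in 4 of 5 at a mean of 3.40 ± 2.25, Nid2 in 4 of 5 at 4.48 ± 2.69 and Sparc in 4 of 5 at 6.55 ± 3.34. Col4a1, Col4a5 and Col18a1 were detected in 3 of 5, and Hspg2, Agrn and Nid1 in 2 of 5. The number of the 9 genes per cell ran from 0 to 9. In those 5 cells the summed TPM of the 15 cardiomyocyte markers ran from 32.6 to 59738.

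Over all cells of a genotype regardless of class, the median difference of the 9 genes was 0.66, with 1.08 in batch 1 and 0.38 in batch 2. Nid2 was higher in cKO by 3.27 and Hspg2 by 1.28, 2 of 9 against 3.89% of all 16659 genes tested, and Nid1 was lower by 2.16, 1 of 9 against 2.35%. Since 67 of 69 cKO cells but only 27 of 74 control cells were CM-like, class make-up and levels within a class cannot be told apart in these values, and the hand-picking of cells can set the make-up.

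Other genes of basement membrane biology were then read from lists of related genes. Over all genes, 2.65% were higher and 2.69% lower between genotypes in CM-like cells, with a median difference of 0.052. The enzymes and carriers of collagen IV assembly had the largest median genotype difference in CM-like cells, 1.35 over 13 of 13 genes that passed the filter (1.48 and 0.92 within the batches). Among them 6 were higher and 0 lower. P4ha2, a catalytic subunit of prolyl 4-hydroxylase, went from a mean of 2.48 to 7.53, a difference of 5.04. Plod2, a lysyl hydroxylase, differed by 2.75, and Serpinh1, the collagen chaperone HSP47, by 0.28, with −0.44 in batch 2. Among matrix receptors, 3 of 11 genes were higher and 0 lower, with a list median of 0.95. They were the integrin subunits Itgb3, at 0.12 in control and 2.16 in cKO, and Itgav, with a difference of 1.74, as well as the receptor phosphatase Ptprs, with 1.65, which was named after its values were seen. Lrp4, the agrin receptor of the neuromuscular junction, differed by −0.43.

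The remaining lists moved less. Of 18 other basement membrane genes, among them 7 laminin chains, 14 passed the filter, 1 was higher and 0 lower, and the median difference was 0.49. The higher gene was the laminin chain Lama5, by 1.58. Tinagl1 differed by 2.20, though by 0.90 in batch 2, and Frem1 by −1.28, with −0.82 in batch 1. Of 19 genes of heparan sulfate synthesis, 17 passed, 0 were higher and 1 was lower, with a median of 0.11. That gene was Ext2, part of the polymerase that extends the chains, which was lower by 1.16 in cKO, while Hs6st2 and B4galt7 each differed by 0.54. For matrix-degrading enzymes and their inhibitors, 9 of 12 passed and 0 were scored in either direction, with Ctsl at 1.32 (0.64 in batch 2), Mmp15 at 0.91 and Timp1 at −0.80. The other members of the SPARC family were scored in neither direction in 4 of 7 tested, with Fstl1 at 0.36, Sparcl1 at 0.26 and Spock3 at −0.085. Between control classes, 0 of 12 other basement membrane genes tested were higher in endothelial-like than in CM-like cells and 1 was lower. That gene was Npnt (nephronectin, an integrin ligand), lower by 1.42, named after its values were seen. Of the matrix-degrading enzymes and inhibitors, 6 of 9 were higher. Over all genes in that comparison, 10.2% were higher and 4.68% lower, with a median difference of 0.29.

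Loss of Dgcr8 removes microRNAs, so the 3′ UTRs of the 9 genes were searched for matches to bases 2 to 8 of the miR-29 family, which is widely known to target collagens, and of miR-541-5p, which the study followed up. MicroRNA levels were not measured in these cells. The study did profile microRNAs in wild-type hearts of the same age. Its printed list of the most abundant ones holds miR-541-5p and no member of the miR-29 family. The mature sequences (RefSeq, GRCm38.p6) follow, with the seed, bases 2 to 8, in capitals.
miR-29a-3p: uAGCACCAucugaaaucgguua
miR-29b-3p: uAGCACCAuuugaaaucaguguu
miR-29c-3p: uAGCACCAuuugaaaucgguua
miR-541-5p: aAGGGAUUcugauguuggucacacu
The seeds of the 3 miR-29 microRNAs are the same, so they share the match TGGTGCT, and that of miR-541-5p is AATCCCT. For the annotated transcript with the longest 3′ UTR of each gene (GENCODE M21, GRCm38), 4 of 9 genes held a miR-29 match, Col4a1 (1), Col4a2 (2), Col4a5 (3) and Agrn (1). These sites are shown, with the match in capitals, because each of the 3 collagen IV chains holds at least 1.
Col4a1, chr8:11199750-11199779, − strand: ccgtcacaacaTGGTGCTactcccccccct
Col4a2, chr8:11448348-11448377, + strand: gaaggccacgtTGGTGCTtatccttctgta
Col4a2, chr8:11448519-11448548, + strand: cacacccagctTGGTGCTtactcttaactt
Col4a5, chrX:141688242-141688271, + strand: gctcccaccaaTGGTGCTaatatcctctat
Col4a5, chrX:141688523-141688552, + strand: attctttttcaTGGTGCTactaatcctaat
Col4a5, chrX:141688946-141688975, + strand: tcttattattcTGGTGCTatgcaagaatta
Agrn, chr4:156166321-156166350, − strand: gagacaaaaagTGGTGCTgagggactccta
Of 11894 genes tested with an annotated 3′ UTR, 16.3% held at least 1 miR-29 match and 2.61% at least 2. The genes with at least 1 had a median genotype difference of 0.094 in CM-like cells, against 0.056 over all 11894, and 3.31% against 2.97% were scored as higher. The 4 genes with a match, Col4a1, Col4a2, Col4a5 and Agrn, differed between genotypes by 1.42, 1.35, 0.70 and 1.82. Those without differed by 1.93 (Col18a1), 2.25 (Hspg2), 1.04 (Sparc), −0.039 (Nid1) and 1.80 (Nid2). The part of any microRNA in these differences was not tested. None of the 9 UTRs held the 7 letters of the miR-541-5p match, which 9.37% of genes held. The study named Hspg2 among predicted targets of this microRNA, and other prediction rules or transcripts were not searched here. A match of letters is not a tested site, and longer UTRs hold more of them.

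The genes whose levels across all 143 cells were most like each of the 9, by Spearman's rho among the 10532 genes detected in at least 20% of cells, differed between the nidogens. For Nid1 they were the endothelial transcription factor Ets1 (0.68), Tgif1 (0.65) and endothelin-1, Edn1 (0.60). For Nid2 they were the secreted glutathione peroxidase Gpx3 (0.72) and the glycolytic enzymes Gapdh (0.70) and Pfkp (0.69). Col4a1 was followed by Col4a2, Calu (0.58) and Aplp2 (0.57), and Col4a2 by Col4a1, Hspg2 (0.54) and fibronectin, Fn1 (0.52). Col18a1 was most like Fn1 (0.61), the prolyl hydroxylase subunit P4hb (0.61) and Iqgap1 (0.60). Hspg2 stood with Tinagl1 (0.55), Col4a1 (0.54) and Cyfip1 (0.54), and Agrn with Nedd4 (0.51), Sort1 (0.47) and Grb10 (0.45). Sparc stood with Anxa5 (0.57), H3f3b (0.55) and Serpinh1 (0.54). Col4a5 had the weakest likeness, with Zfp292 (0.40), Cd44 (0.39) and Macf1 (0.39). These values pool classes, genotypes and batches, and the cells share their libraries' depth.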

How the data were processed

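Single cells were prepared with Smart-seq2, a full-length method without molecular identifiers. The authors quantified reads with Salmon against mouse mm10 with GFP and tdTomato sequences added, and deposited TPM per gene symbol and cell (version and annotation not given in the sources used here), after removing cells of low mapping rate or of reporter state against their genotype. Of 170 labelled samples, 143 have a column, and the other 27 were not analysed here. Values were turned into log2(TPM + 1). Cells were clustered (Ward linkage of standardised levels of 55 markers, 5 clusters) and a cluster was named from at least 3 markers higher by at least 1 in it and detected in most of its cells, unless most markers of another class were higher too. A cell was counted as detected at a TPM of at least 1. No doublet caller was run on these hand-picked cells. Genotypes and classes were compared by differences of mean log2(TPM + 1), pooled and per batch. No test was run, since each genotype is 1 sample, and n counts cells. Exact Clopper-Pearson intervals (95%) and the limit of 3 cells of the total for a count of 0 cover counting error only. Coordinates come from GENCODE M21 (GRCm38, the build of mm10). Promoters and microRNAs come from RefSeq (8 of 9 genes matched a promoter). The text names the 9 genes, from each list the 2 genes with the largest and the 1 with the smallest genotype difference, and for each of the 9 the 3 genes of highest rho. The 9 genes and the lists were chosen with earlier results of these data known. Alternatives changed the pseudocount, the statistic, the clusters, the cells, the scaling, the batch, the filter and the detection threshold. Python 3.11.15, pandas 2.3.3, numpy 2.4.6 and scipy 1.17.1 were used.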

Additional observations from a re-analysis of the deposited data

Results flagged for a closer look

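The cluster of 9 cells led by mitochondrial transcripts, with a median of 53.97% of TPM from them against 3.67% in CM-like cells, entered no comparison of classes or of genotypes within a class, and was part of the comparison over all cells. Its 2 cKO cells had means above the highest of its 7 control cells for Sparc, Nid2, Col4a5 and Agrn, which is why they are listed here. How many of all genes met that rule was not counted, so the list does not show these genes to be unusual. Sparc had a mean log2(TPM + 1) of 9.75 (7.70 and 11.81 in the 2 cells), against a control median of 2.36 and a highest control cell of 8.40. Nid2 had a mean of 3.83, but the cells differed, at 0.54 and 7.12, and the highest control cell was at 0.51. Col4a5 had a mean of 3.82, from 1 cell at 7.65 and 1 at 0, against a highest control cell of 0.35. Agrn had a mean of 0.62, with 0.14 and 1.09, against a highest control cell of 0.23. With 2 cells the difference was not tested, and these cells had 4462 and 6521 detected genes. Mitochondrial transcripts made up 18.6% and 61.4% of their TPM, and from 4.32% to 61.1% in the control cells, so the cells compared were unlike. The cKO cell at 18.6% held the higher Sparc and Agrn.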

How the results depend on the processing

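The median difference of the 9 genes between genotypes in CM-like cells, 1.42, stayed positive in all 15 alternatives. It was 1.60 with a pseudocount of 0.1, 0.89 with 10, 1.68 from medians, 1.94 with 4 clusters (which put the mitochondrial-led cells with the CM-like ones), 1.48 with clusters from the 1000 most variable genes, 1.33 after rescaling without mitochondrial and ribosomal protein transcripts, 1.33 in batch 2, 1.59 without cells holding defining endothelial markers and 1.96 without those holding mesenchymal or epicardial ones. The count of higher genes was 1 of 9 with a pseudocount of 10 (Hspg2) and between 4 and 7 otherwise. Of the 5, Col4a1 was not scored from medians, and Nid2 not in cells with at least 6000 detected genes or with clusters from variable genes. Over all genes, the 399 higher and 406 lower became 759 and 827 with a pseudocount of 0.1, 140 and 95 with 10, 2010 and 507 as a log2 ratio of mean TPM, 924 and 146 with 4 clusters, 390 and 738 with clusters from variable genes, 1910 and 554 in batch 1, 772 and 2949 in batch 2, and 1992 and 371 without cells holding mesenchymal or epicardial markers. For endothelial-like minus CM-like cells the median, 2.44, was 2.98 and 1.38 with pseudocounts of 0.1 and 10, 2.26 as a log2 ratio of mean TPM, 2.84 from medians, 2.87 with 4 clusters, 1.59 with clusters from the 1000 most variable genes, 2.32 in cells with at least 6000 detected genes, 2.51 after rescaling, 1.91 in batch 1, 1.99 in batch 2 and 2.15 relative to all genes. Clusters from variable genes joined the endothelial-like cells with the epicardial and mesenchymal ones (37 cells), so that comparison could not be run for the latter. Of the 6 higher genes, Agrn was then lost with a pseudocount of 10 and as a ratio, and Hspg2 and Agrn with clusters from variable genes (4 of 9). For the cluster with epicardial and mesenchymal markers, 1 gene was higher with a pseudocount of 10 in place of 3. In batch 1, which had 4 cells of it, 7 were higher. In that cluster Nid2 was scored as lower with a pseudocount of 0.1, after rescaling, in batch 2 and relative to all genes. For endothelial-like cells the 1343 higher and 614 lower of all genes became 2159 and 962 or 531 and 272 with pseudocounts of 0.1 and 10, 2201 and 1084 as a ratio, 2447 and 353 with 4 clusters, 767 and 715 with clusters from variable genes, 3753 and 860 in batch 1, and 1691 and 1848 in batch 2. For the other cluster the 989 and 586 became 1521 and 983 or 340 and 220 with those pseudocounts, 1195 and 1048 as a ratio, 2037 and 328 with 4 clusters, 2673 and 1205 in batch 1, and 1492 and 1122 in batch 2. Detection above 0 gave 4 of 9 genes with a larger share in cKO, in place of 9, and 8 at a TPM of at least 5. A larger share by any amount was counted here, as with 0.11 percentage points for Nid1 at a TPM of at least 1. The same count was not made over all genes, so these counts have no background to be read against. Weighting control classes equally moved the median over all cells from 0.66 to 1.18. Of the 27 differences for single genes, Sparc and Nid1 between genotypes, Col4a5 in endothelial-like cells, and Hspg2 and Agrn in the cluster with epicardial and mesenchymal markers changed sign in at least 1 alternative, and none of these was scored. The causes were not tested. No paired analysis was possible because the result comes from no test and the labels give no shared replicate numbers. Depth cannot be read from TPM, and batch 2 has only 8 control CM-like cells.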
